A study of Mus musculus with 8 samples.

Results

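Duct and mesothelial marker genes were followed in RNA of hand-picked pancreatic islets from 12-week-old C57BL/6 mice. They comprise 6 markers of the duct epithelium (Krt7, Krt19, Sox9, Spp1, Cftr and Muc1) and 3 of the mesothelium (Msln, Upk3b and Wt1). These 9 genes were taken by name from the 20715 genes listed in each library. There were 4 libraries from ob/ob mice, in which both copies of the leptin gene Lep carry the ob mutation, and 4 from ob/+ mice, which carry the mutation on 1 copy only. No group was a wild type, and the labels name no agent. Without leptin, mice overeat, gain fat and enlarge their islets. Expression values are taken as FPKM, in which fragments are scaled by transcript length and by library size; the unit is inferred from the values. On that reading levels can be compared between genes, while a comparison between libraries also moves with the RNA that fills the rest of each library. Whether each library came from a separate mouse or from pooled mice is not stated, so a p-value here reflects variation among libraries that could be technical in part.

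Pancreatic ducts carry the enzyme-rich juice of acinar cells to the gut. Their cells are known for simple-epithelial keratins, for the transcription factor SOX9 and for the chloride and bicarbonate channel CFTR, which makes the fluid alkaline. The mesothelium is the flat epithelium that covers the pancreas and the other abdominal organs, and it is known for mesothelin, uroplakin 3B and the transcription factor WT1. Both tissues lie outside the islets, so their markers are commonly used to look for carried-over tissue in islet preparations. Several of these genes are also known from other cells, such as Spp1 from macrophages.

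Of the 9 genes, Msln fell and Krt7 and Spp1 rose in ob/ob islets, Krt19 and Muc1 did not pass the test, and the other 4 were too low to be tested. The call of Krt7 ended in 2 of 19 alternative analyses, those of Msln and Spp1 in none. Mesothelin RNA averaged 3.64 ± 1.08 FPKM in ob/ob islets and 25.0 ± 7.14 FPKM in ob/+ islets (SD, n = 4 each), 6.86-fold higher in ob/+. Osteopontin RNA (Spp1) averaged 44.0 ± 4.08 FPKM in ob/ob islets and 25.7 ± 4.52 FPKM in ob/+ islets (SD, n = 4 each), a ratio of 1.71. Keratin 7 RNA averaged 145 ± 5.59 FPKM in ob/ob islets and 114 ± 15.2 FPKM in ob/+ islets (SD, n = 4 each), a ratio of 1.27. In bulk RNA, fewer cells of a type and less RNA per cell cannot be told apart.

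The sequences before the start sites of Krt7 and Spp1 are shown because both genes rose in ob/ob islets. They are the 250 bases upstream of the start site in the RefSeq promoter table, for Spp1 the one of its entries nearest to the GENCODE gene start, on GRCm38.p6 and the plus strand, chr15:101412153-101412402 for Krt7 and chr5:104434861-104435110 for Spp1. Capitals mark every match, on either strand, to the GC box GGGCGG, the TATA box TATAAA, the box known as CCAAT, the RUNX site AACCACA or the AP-1 site TGANTCA. No marked matches overlap. By the GENCODE positions, the Krt7 stretch lies inside the gene, which begins at 101411043.
Krt7: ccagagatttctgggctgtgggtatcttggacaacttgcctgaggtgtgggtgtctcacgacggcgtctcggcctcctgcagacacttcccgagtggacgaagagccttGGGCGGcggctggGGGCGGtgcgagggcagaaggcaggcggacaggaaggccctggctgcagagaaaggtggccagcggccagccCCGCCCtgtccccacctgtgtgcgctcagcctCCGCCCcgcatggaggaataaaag
Spp1: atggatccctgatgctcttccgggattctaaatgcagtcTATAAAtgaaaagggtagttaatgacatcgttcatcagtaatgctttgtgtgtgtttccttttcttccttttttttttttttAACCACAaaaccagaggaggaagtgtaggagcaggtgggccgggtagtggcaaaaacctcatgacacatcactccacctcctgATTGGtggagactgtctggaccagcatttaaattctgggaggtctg
The Krt7 stretch held 4 matches to GGGCGG, beginning 141, 128, 56 and 24 bases before the start site, and none to the other 4 motifs. The Spp1 stretch held 1 match each to TATAAA at 211 bases, to AACCACA at 129 bases and to CCAAT at 46 bases before the start site. Of 32851 stretches of the same length in the promoter table, 32.7% held GGGCGG, 12.4% TATAAA, 33.8% CCAAT, 4.4% AACCACA and 6.75% TGANTCA. The 2 stretches shared no searched motif, and a match describes the sequence only.

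The labels were first set against the levels of the genes themselves. Krt7 had the highest level of the 9 and ranked 298 of 17401 genes with values, and Spp1 ranked 1304. Krt19, Sox9 and Cftr, which duct cells are also known for, ranked 10434, 12394 and 15464. Among the mesothelial markers Msln ranked 3514, while Upk3b and Wt1 ranked 15483 and 17215. Muc1, at rank 5817, lay between them. High levels of Krt7, Spp1 and Msln thus stood beside low levels of other defining markers of the same tissues. Here the 9 genes are described as named genes, not as a measure of duct or mesothelial cells.

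**Figure D1:**
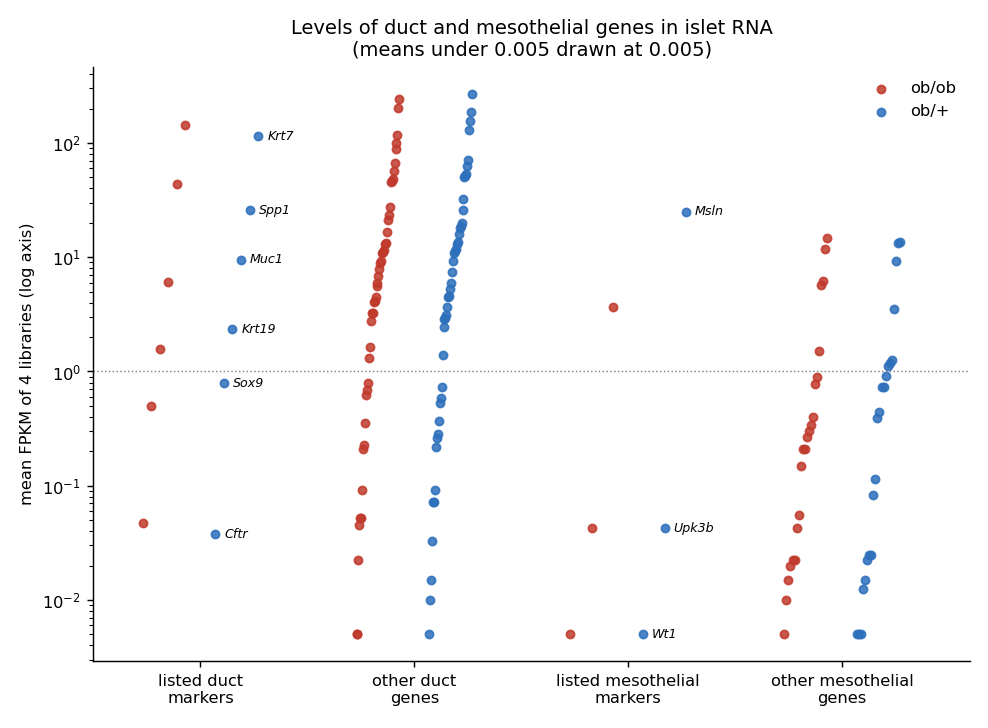
Mean FPKM of 4 libraries on a log axis for the 6 duct and 3 mesothelial markers (named beside the ob/+ points) and for other duct and mesothelial genes, with ob/ob in red and ob/+ in blue; the dotted line is at 1 FPKM. Krt7, Spp1 and Msln stand far above Sox9, Cftr, Upk3b and Wt1, and the other mesothelial genes lie mostly under 1 FPKM.

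The libraries differed in composition. Their depth is unknown, and a rough estimate of relative depth from the steps of low values ran from 0.979 to 1.03. Acinar genes, 44 of them with values, took 3.3% to 11.5% of summed FPKM in ob/ob libraries and 7.63% to 25.9% in ob/+ libraries, with ob/+ 4 the highest. The insulin genes took 57.1% to 65.6% in ob/ob and 42.0% to 54.3% in ob/+ libraries. A gene was tested where 4 libraries or more reached 1 FPKM, and of 11747 such genes 2208 passed an adjusted p of 0.05 (limma, Benjamini-Hochberg), with 965 up and 1243 down in ob/ob. The higher share of these calls was 43.7%, against 66.9% for library totals that omit the 10 most abundant genes and 6.4% for totals that omit the acinar genes. Those scalings moved the median over tested genes, a log2 fold change of -0.073 as deposited, by 0.10 and by -0.26.

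Keratins are the intermediate filaments of epithelia, built from pairs of a type II and a type I chain. Krt7 (GRCm38 chromosome 15, 101411043 to 101430313, plus strand), a type II chain, had 148, 151, 138 and 142 FPKM in the ob/ob libraries, against 136, 105, 114 and 102 FPKM in the ob/+ libraries. Every ob/ob library lay above every ob/+ library, with ob/+ 1 the nearest to the lowest ob/ob library. The log2 fold change of FPKM + 1 was 0.35 ± 0.10 (SE, limma adjusted p = 0.0107, 95% interval 0.15 to 0.55). The call ended when the acinar genes were left out of the library totals (0.046, adjusted p = 0.676), where the median of all genes was -0.33. Relative to the median of all genes, the difference was 0.42 as deposited and 0.38 under that scaling. It also ended with the acinar share as a covariate (0.29, adjusted p = 0.0658).

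Krt19 (chromosome 11, 100140810 to 100148665, minus strand), the type I keratin most used to mark ducts, had 3.02, 0.86, 1.04 and 1.42 FPKM in the ob/ob libraries. The ob/+ libraries had 3.28, 0.51, 2.34 and 3.22 FPKM. The groups overlapped, and within each genotype the highest library had several times the level of the lowest. The log2 fold change was -0.33 ± 0.42 (SE, limma adjusted p = 0.655), with a 95% interval from -1.35 to 0.70 that leaves the direction undetermined. With the acinar share as a covariate it turned to 0.34 (limma adjusted p = 0.467). Krt7 exceeded Krt19 in every library, by 48.9-fold to 175-fold in ob/ob and by 31.6-fold to 206-fold in ob/+. The library with the highest ratio, ob/+ 2, was the one with the lowest Krt19.

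The partner keratins of islet epithelium were measured beside them. Krt8, a type II chain, was at 56.3 ± 1.13 FPKM in ob/ob and 53.3 ± 4.17 FPKM in ob/+ (SD, n = 4 each; limma adjusted p = 0.589). Krt18, its type I partner, was at 88.7 ± 8.57 FPKM in ob/ob and 70.2 ± 2.97 FPKM in ob/+ (SD, n = 4 each; log2 fold change 0.33, limma adjusted p = 0.0147). Krt18 is named here because of Krt7, after its values were seen, and its call ended in 5 of 19 alternatives, among them the scaling without acinar genes (0.027, adjusted p = 0.79). Krt7 made up 72.0% ± 1.11 of summed Krt7 and Krt8 in ob/ob libraries and 68.1% ± 1.30 in ob/+ libraries (SD, n = 4 each), a share that no scaling of a library can alter. The lowest ob/ob share was 70.5% and the highest ob/+ share 69.95%. Krt19 made up 0.87% to 3.19% of summed Krt18 and Krt19 in ob/ob and 0.697% to 4.48% in ob/+ libraries. Summed Krt7 and Krt8 were 2.24 ± 0.18 times summed Krt18 and Krt19 in ob/ob and 2.31 ± 0.23 times in ob/+ (SD, n = 4 each). Other keratins with values were not part of these sums.

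Sox9 (chromosome 11, 112782224 to 112787760, plus strand) encodes a transcription factor of pancreatic progenitors that adult duct cells keep. It had 0.77, 0.35, 0.51 and 0.36 FPKM in the ob/ob libraries, against 0.61, 0.72, 0.91 and 0.91 FPKM in the ob/+ libraries. It stayed under 1 FPKM in every library, and ob/ob 1 lay within the ob/+ values while the other ob/ob libraries lay below them. The exact two-sided permutation test over 70 assignments gave an unadjusted p = 0.0857, where 0.0286 is the smallest that 4 against 4 can give. Without the low-value filter the limma adjusted p was 0.123 over 17401 genes.

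Cftr (chromosome 6, 18170687 to 18322768, plus strand), the duct's chloride and bicarbonate channel, was near the floor of the files. It had 0.10, 0.02, 0.02 and 0.05 FPKM in the ob/ob libraries, against 0.04, 0.05, 0.03 and 0.03 FPKM in the ob/+ libraries. The groups overlapped, and no difference was detectable at this level (exact permutation p = 0.857, unadjusted). In the annotation an antisense gene and a pseudogene overlap Cftr, the antisense gene Gm671 overlaps Krt7 by 1269 bases, and Gm42793 overlaps Spp1 on the same strand by 1252 bases. The strand setting of the counting is not given, so reads from these overlaps cannot be told apart from those of Cftr, Krt7 and Spp1.

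Spp1 (chromosome 5, 104435118 to 104441050, plus strand) encodes osteopontin, a secreted phosphoprotein that binds integrins. It had 41.8, 49.8, 43.8 and 40.5 FPKM in the ob/ob libraries, against 23.7, 25.5, 21.6 and 32.1 FPKM in the ob/+ libraries. All ob/ob libraries lay above all ob/+ libraries, with ob/+ 4 the nearest. The log2 fold change was 0.76 ± 0.11 (SE, limma adjusted p = 2.38e-05, 95% interval 0.52 to 1.00), and it kept its call and direction in 19 of 19 alternatives, from 0.46 to 0.89. Macrophage markers, 14 with values and 10 of them at 1 FPKM in any library, summed to 77.3 to 131 FPKM in ob/ob and 84.4 to 122 FPKM in ob/+ libraries. Of these, 9 were tested and none was called in either direction, where 18.8% of all tested genes were called. With so few genes this count describes the list only. The part of macrophages in the Spp1 difference was not tested. Among its neighbours within 100 kb, Pkd2, which encodes a cation channel of primary cilia, was at 10.9 FPKM in ob/ob and 10.9 FPKM in ob/+ (limma adjusted p = 0.932).

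Muc1 (chromosome 3, 89229057 to 89233381, plus strand) encodes a mucin that spans the membrane on the free surface of glandular cells. It had 9.42, 3.56, 5.32 and 6.10 FPKM in the ob/ob libraries, against 5.72, 4.28, 12.0 and 16.2 FPKM in the ob/+ libraries. The groups overlapped, and ob/+ 4 and ob/+ 3 were the highest of the 8. The log2 fold change was -0.47 ± 0.46 (SE, limma adjusted p = 0.546), with a 95% interval from -1.59 to 0.64. The acinar share was 11.5%, 3.3%, 6.42% and 6.49% in the ob/ob libraries, against 10.6%, 7.63%, 14.0% and 25.9% in the ob/+ libraries. Within each genotype the libraries stood in the same order by Muc1 and by acinar share. With the acinar share as a covariate the log2 fold change of Muc1 turned to 0.41 ± 0.17 (SE, limma adjusted p = 0.082), so its direction depended on that term.

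**Figure D2:**
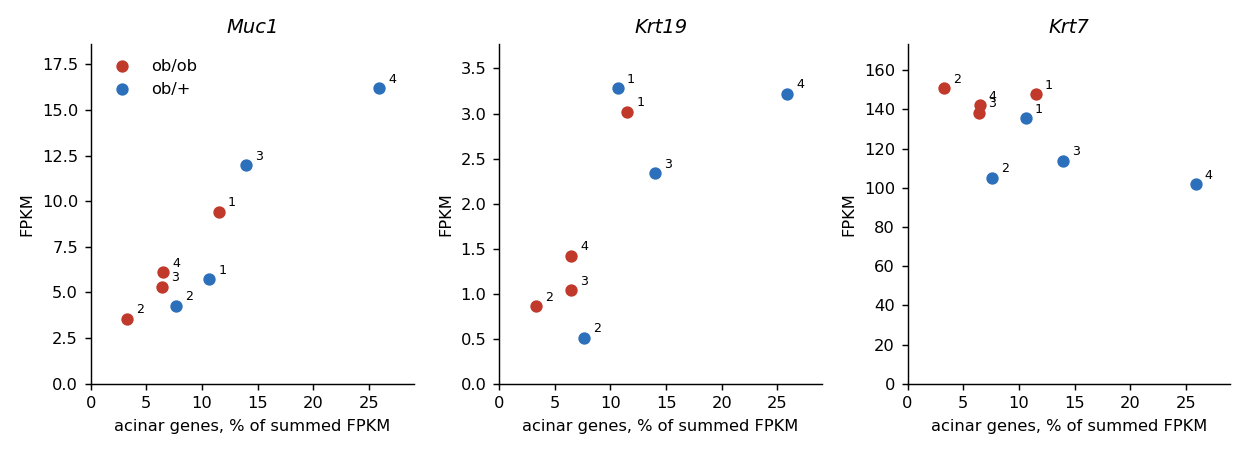
FPKM of Muc1, Krt19 and Krt7 against the share of acinar genes in summed FPKM, 1 point per library with its replicate number, ob/ob in red and ob/+ in blue. Muc1 was highest in ob/+ 4 (16.2 FPKM, 25.9% acinar) and lowest in ob/ob 2 (3.56 FPKM, 3.3% acinar), whereas Krt7 stayed between 102 and 151 FPKM.

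Msln (chromosome 17, 25748613 to 25754378, minus strand) encodes mesothelin, a glycoprotein tethered to the cell surface by a lipid anchor. It had 3.08, 2.69, 3.65 and 5.15 FPKM in the ob/ob libraries, against 21.9, 22.9, 35.5 and 19.6 FPKM in the ob/+ libraries. The groups were far apart, with every ob/ob library below every ob/+ library. The log2 fold change was -2.48 ± 0.19 (SE, limma adjusted p = 9.92e-07, 95% interval -2.89 to -2.06), the 4th lowest of the 11747 genes tested. It kept its call and direction in 19 of 19 alternatives, from -2.75 to -2.30.

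Upk3b (chromosome 5, 136038496 to 136046487, plus strand), a uroplakin of the mesothelial surface, was listed at 0 in 4 libraries. It had 0, 0, 0.03 and 0.14 FPKM in the ob/ob libraries, against 0.08, 0, 0.09 and 0 FPKM in the ob/+ libraries (exact permutation p = 1, unadjusted). Wt1 (chromosome 2, 105126529 to 105173616, plus strand), a zinc finger transcription factor of mesothelium, was listed at 0 in 7 libraries and at 0.02 FPKM in ob/ob 4. These 2 defining mesothelial markers were thus at or near 0 in the ob/+ libraries, where Msln was at 19.6 to 35.5 FPKM.

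**Figure D3:**
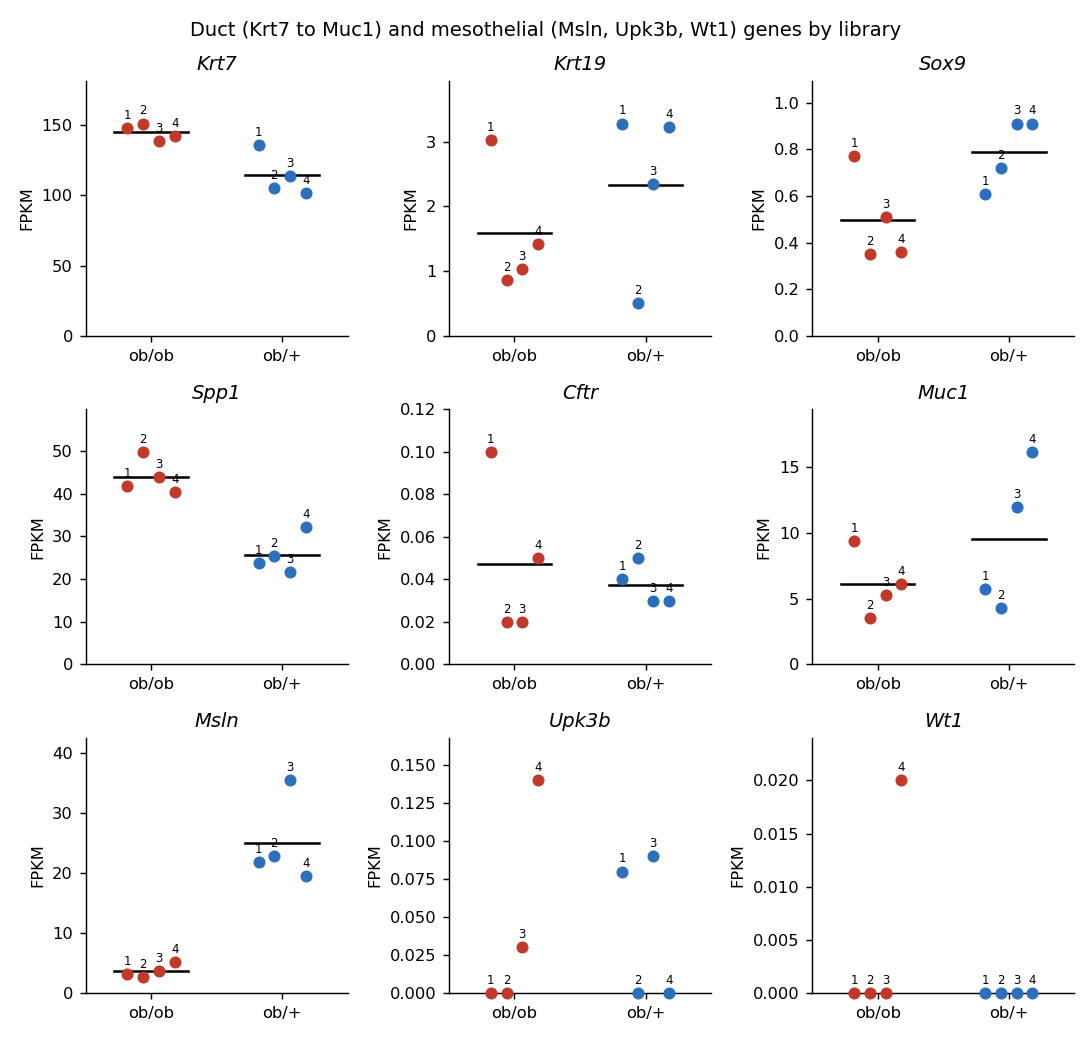
FPKM of each of the 9 genes in the 8 libraries, labelled by replicate number, with ob/ob in red at the left and ob/+ in blue at the right of each panel; each axis starts at 0 and lines are means of 4 libraries, left out for Upk3b and Wt1, which hold zeros. Krt7 and Spp1 are higher and Msln is lower in every ob/ob library, and the groups overlap for the other 6 genes.

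Of the 5 genes that could be tested 3 were called, where 18.8% of all tested genes were called. By direction, 2 were higher, where 8.21% of all tested genes were, and 1 was lower, where 10.6% were. The groups did not overlap for the same 3, against 20.5% of all tested genes, with ob/ob above for 9.75% and below for 10.7%. Without the low-value filter the same calls were the only ones among the 9, where 14.6% of 17401 genes were called, 6.03% higher and 8.54% lower. With so few genes these shares describe the list only. Markers of other cell types differed from list to list. Of 4 tested Schwann cell genes 3 were called lower and 0 higher. Of 11 tested fibroblast and stellate genes 4 were called lower and 2 higher. Of 43 tested acinar genes 2 were called lower and 1 higher. None of 10 tested endothelial, 2 lymphocyte and 2 adipocyte genes was called. The hormones of the other islet endocrine cells were lower in ob/ob islets. Glucagon (Gcg), the alpha cell hormone, was at 7098 to 10056 FPKM in ob/ob and 23645 to 30499 FPKM in ob/+ libraries. Somatostatin (Sst), of delta cells, was at 1010 to 1446 FPKM in ob/ob and 5440 to 6082 FPKM in ob/+. Pancreatic polypeptide (Ppy) was at 1541 to 2781 FPKM in ob/ob and 4204 to 7789 FPKM in ob/+. Msln averaged 0.0427% ± 0.00718 of Gcg in ob/ob libraries and 0.0935% ± 0.0245 of it in ob/+ libraries (SD, n = 4 each). It averaged 0.298% ± 0.0832 of Sst in ob/ob libraries and 0.445% ± 0.137 of it in ob/+ libraries. Of Ppy it averaged 0.17% ± 0.0308 in ob/ob libraries and 0.407% ± 0.126 in ob/+ libraries. These shares overlapped between the genotypes for Sst and did not for Gcg and Ppy. The part of any of these cell types in the fall of Msln was not tested.

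Other duct genes moved in both directions. Of 47 genes listed for ducts 46 had values and 32 were tested, of which 6 rose, 4 fell and 22 did not pass, with a median log2 fold change of -0.02 against -0.073 for all tested genes. Background is 8.21% for higher and 10.6% for lower calls. Prom1, which encodes the membrane-protrusion protein prominin-1, averaged 45.7 ± 3.16 FPKM in ob/ob and 17.9 ± 2.53 FPKM in ob/+ (SD, n = 4 each; log2 fold change 1.32, limma adjusted p = 2.63e-09). Dcdc2a, a doublecortin-domain protein of microtubules and cilia, averaged 7.95 ± 1.19 FPKM in ob/ob and 2.86 ± 0.399 FPKM in ob/+ (SD, n = 4 each; 1.21, limma adjusted p = 1.39e-07). Both kept their calls in 19 of 19 alternatives.

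The claudins, which set the permeability of tight junctions, divided. Cldn3 averaged 21.2 ± 3.69 FPKM in ob/ob and 12.9 ± 1.22 FPKM in ob/+ (SD, n = 4 each; log2 fold change 0.66, limma adjusted p = 0.000314). Cldn7 averaged 16.5 ± 3.03 FPKM in ob/ob and 25.9 ± 2.01 FPKM in ob/+ (SD, n = 4 each; -0.63, limma adjusted p = 0.000413), and Cldn4 averaged 23.5 ± 1.93 FPKM in ob/ob and 32.2 ± 4.21 FPKM in ob/+ (-0.43, limma adjusted p = 0.00669). Tspan8, a tetraspanin of the cell surface, averaged 9.33 ± 2.73 FPKM in ob/ob and 20.03 ± 2.57 FPKM in ob/+ (SD, n = 4 each; -1.06, limma adjusted p = 0.000159). The calls of Cldn3, Cldn7 and Tspan8 held in 19 of 19 alternatives. That of Cldn4 ended with median centring (-0.36, adjusted p = 0.0567) and for totals that omit the 10 most abundant genes (-0.32, adjusted p = 0.113).

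Fxyd3, a regulator of the sodium pump, averaged 27.2 ± 3.18 FPKM in ob/ob and 18.9 ± 0.824 FPKM in ob/+ (SD, n = 4 each; log2 fold change 0.50, limma adjusted p = 0.00147). Clu, the secreted chaperone clusterin, averaged 203 ± 15.3 FPKM in ob/ob and 155 ± 22.8 FPKM in ob/+ (SD, n = 4 each; 0.39, limma adjusted p = 0.00568). For totals that omit the acinar genes both calls ended (0.21 with adjusted p = 0.114 for Fxyd3 and 0.088 with adjusted p = 0.626 for Clu), and that of Clu also ended under upper-quartile scaling (0.45, adjusted p = 0.0562). The remaining called duct genes were Krt18 and Anxa5, a phospholipid-binding annexin gene that is named after its values were seen and was lower in ob/ob (-0.37, limma adjusted p = 0.00747). Its call ended for totals that omit the 10 most abundant genes (-0.25, adjusted p = 0.163) and without ob/ob 1 (-0.30, adjusted p = 0.0514), while it stayed lower in 19 of 19 alternatives. The 4 most abundant duct genes that did not pass were Tff2, Dmbt1, Cdh1 and Krt8. Within each genotype the libraries stood in the same order by Tff2, by Dmbt1 and by acinar share. Tff2, a mucus-associated trefoil peptide, was at 117 ± 56.3 FPKM in ob/ob and 270 ± 146 FPKM in ob/+, and Dmbt1, a secreted scavenger protein, at 241 ± 125 FPKM in ob/ob and 187 ± 104 FPKM in ob/+ (SD, n = 4 each; limma adjusted p = 0.162 and 0.716). Cdh1, the epithelial cadherin, was at 66.8 ± 4.96 FPKM in ob/ob and 62.5 ± 8.87 FPKM in ob/+ (SD, n = 4 each; limma adjusted p = 0.55).

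**Figure D4:**
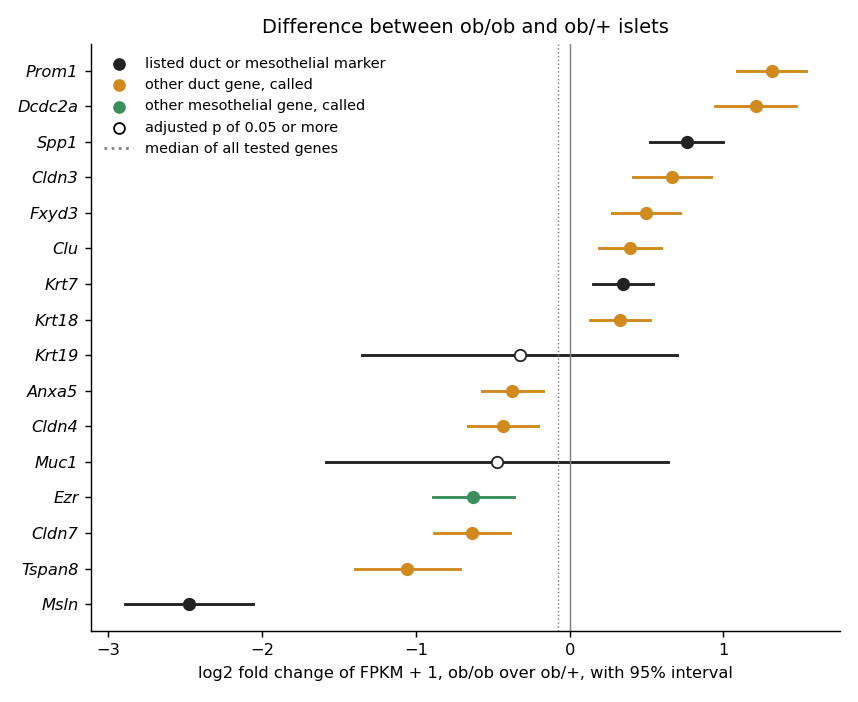
Log2 fold change of FPKM + 1, ob/ob over ob/+, with its 95% interval, for the 5 tested duct and mesothelial markers (black; open where the adjusted p is 0.05 or more) and for the called genes of the other duct list (orange) and the other mesothelial list (green). Msln, at -2.48, lies farthest from 0, and the duct genes lie on both sides of 0.

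Of 14 other duct genes with values below the filter, 8 stayed under 0.5 FPKM in every library. Among them were the secretin receptor Sctr (0 to 0.09 FPKM in ob/ob, 0 to 0.14 FPKM in ob/+), the water channel Aqp5 (0 to 0.11 FPKM in ob/ob, 0 to 0.04 FPKM in ob/+) and the anion exchanger Slc26a3 (0 to 0.02 FPKM in ob/ob, 0 FPKM in ob/+). These 3 are named after their values were seen.

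Of 24 genes listed for mesothelium 22 had values and 6 were tested. Of these 6 only Ezr was called, where 18.8% of all tested genes were called and 10.6% were lower. It was lower, with 5.68 ± 1.05 FPKM in ob/ob and 9.25 ± 0.81 FPKM in ob/+ (SD, n = 4 each; log2 fold change -0.63, limma adjusted p = 0.000855). Ezrin ties the cell membrane to actin in many epithelia. Dpp4, Podxl, C3 and Sbsn, the most abundant of the 5 that did not pass, had limma adjusted p-values of 0.426, 0.307, 0.425 and 0.244. Further mesothelial markers were close to 0, such as Lrrn4, a membrane protein gene (at most 0.02 FPKM in ob/ob and 0.02 FPKM in ob/+), and the zinc finger gene Bnc1 (at most 0.01 FPKM in ob/ob and 0.01 FPKM in ob/+), named after their values were seen like the next 2. In the fit without the low-value filter, in which 8.54% of 17401 genes were called lower, 3 of the 22 were lower. They were Ezr and, beyond it, the neuronal membrane glycoprotein gene Gpm6a (0.19 to 0.37 FPKM in ob/ob, 0.93 to 1.30 FPKM in ob/+, limma adjusted p = 0.000246) and the growth factor binding protein gene Igfbp6 (0.04 to 0.45 FPKM in ob/ob, 0.67 to 1.33 FPKM in ob/+, limma adjusted p = 0.003875).

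The genes whose deviations from the genotype means followed each marker most closely over the 8 libraries differed from marker to marker. For Muc1 they were Reg1, a lectin gene on the acinar list (Pearson r = 0.982), the connexin gene Gjb1 (0.97) and the protease inhibitor gene Serpinb1a (0.966). For Krt19 they were Xlr4a (0.984), Prr15l (0.972) and Ahcy (0.943). For Krt7 they were Phyh, a peroxisomal enzyme gene (0.973), Maff (0.959) and Sema3g (0.952). For Spp1 they were Fam159b (0.951), Ly6c1 (0.951) and Rab3il1 (0.936), and for Msln they were Gm609 (0.988), Tmem71 (0.972) and Sept10 (0.971). Of the 15, Fam159b, Gm609 and Tmem71 were called, all lower in ob/ob, a number near the 18.8% of all tested genes called. Values this high are found by searching 11747 genes over 8 libraries, so they only describe these libraries.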

How the data were processed

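Islets were released with 1 mg/ml collagenase, enriched on a gradient and picked by hand, and 1 µg of their RNA went into each library, per the labels' protocols. The authors deposited 1 value per gene and library, taken here as FPKM from how the values behave, since no header or label names a unit. Per the submitters' processing notes, Trimmomatic 0.36 and DESeq2 1.20.0 were used at some step with mm10 or GRCm38. Aligner and quantifier are not given here. Values relative to a library total mean that more insulin or acinar RNA lowers other genes. FPKM hold no counts, so no counting intervals are given and no count test was run. Of 20715 listed genes, 3314 had no value in any library.

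The test was limma 3.58.1 (R 4.3.3; moderated variances with a trend, made robust through statmod 1.5.0) on log2(FPKM + 1), for genes reaching 1 FPKM in 4 or more libraries. It was two-sided, and calls needed an adjusted p (Benjamini-Hochberg) under 0.05. Fold changes on this scale understate those of low genes; ratios are of mean FPKM. The fit was tested on simulated data with known answers. Genes below the filter were compared by exact permutation with SciPy 1.17.1. The members and lists were chosen with earlier results of these data known. Named genes were the 9 markers, up to 8 called genes of each further list by p, up to 4 uncalled ones by level and the 3 likest genes per tested marker. Positions are from GENCODE for GRCm38 and promoter letters from RefSeq, whose table held 5 of the 9 genes. Correlations of log2 values were 0.978 to 0.993 within and 0.955 to 0.965 between genotypes, and no library was a duplicate.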

Additional observations from a re-analysis of the deposited data

Results flagged for a closer look

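In 4 of the 85 genotype groups examined, 1 library stood apart from the other 3 by Dixon's criterion, which chance meets in about 5% of groups. Wt1 was at 0.02 FPKM in ob/ob 4 and listed at 0 in the other ob/ob libraries. Sema3g was at 1.09 FPKM in ob/ob 2 and 1.04 FPKM in the others. Ly6c1 was at 50.6 FPKM in ob/ob 2 and 40.8 to 41.4 FPKM in the others. Dpp4 was at 11.1 FPKM in ob/+ 4 and 13.7 to 14.1 FPKM in the others.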

How the results depend on the processing

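Msln and Spp1 kept direction and call in 19 alternatives of scaling, filter, pseudocount, model and libraries left out. Krt7 kept its direction, and its call ended in 2, a total without acinar genes (0.046) and the acinar share as covariate (0.29). Without 1 library at a time the log2 fold change ran from 0.30 to 0.43 for Krt7, from 0.69 to 0.87 for Spp1 and from -2.62 to -2.30 for Msln. Muc1 was called in none of 19 and Krt19 in none of the 18 that could test it. Both turned positive with the acinar covariate (0.41 for Muc1 and 0.34 for Krt19). The 2208 calls over all genes became 3429 with median centring, 3465 with upper-quartile scaling, 7573 with a total without acinar genes and 4000 without both ob/ob 1 and ob/+ 4; without 1 library at a time they ran from 1434 (without ob/+ 1) to 4832 (without ob/+ 4); the cause was not tested. A replicate block gave 2674 calls and changed no call of the 5 tested markers. Same-numbered libraries correlated in their deviations at -0.22, 0.212, 0.172 and 0.124, 1 of them not over 0.1, so the numbers were not taken as pairs; 5 of 8 libraries correlated best with their own number. Depth is unknown, so values such as those of Cftr and Wt1 have no counting error.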

Other observations

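Mslnl, the mesothelin-like gene on the opposite strand of chromosome 17 (25736042 to 25748330), ends 0.3 kb from Msln. It had 0.15, 0.04, 0.20 and 0.13 FPKM in the ob/ob libraries, against 0.94, 0.35, 1.01 and 1.10 FPKM in the ob/+ libraries. All ob/ob libraries lay below all ob/+ libraries, and in the fit without the low-value filter its log2 fold change was -0.69 ± 0.12 (SE, limma adjusted p = 0.0035). Of 12 tested genes within 100 kb of Msln 2 rose and 2 fell, where 8.21% of all tested genes rose and 10.6% fell. The nearest tested gene, Rpusd1, averaged 13.4 ± 2.21 FPKM in ob/ob and 18.4 ± 1.72 FPKM in ob/+ (SD, n = 4 each; limma adjusted p = 0.0113).

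Lcn2, a secreted siderophore-binding protein on the duct list, had 8.60 FPKM in ob/ob 1 and 0.69 to 2.77 FPKM in the other ob/ob libraries, against 0.14 to 0.90 FPKM in ob/+ libraries, and it did not meet the filter. Slpi, a protease inhibitor on the mesothelial list, was high in other libraries, with 4.17 FPKM in ob/ob 3 and 1.72 FPKM in ob/ob 4.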
